A study of Mus musculus with 14 samples.

Results

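Passenger strands of microRNAs were compared among 3 epithelial populations of the adult mouse mammary gland, and those with a guide assay of the same name were set against it. A microRNA precursor is a hairpin that Dicer cuts into a short duplex. The strand that is usually kept by an Argonaute protein is called the guide, and its partner, the passenger or star strand, is usually degraded, although some passengers are loaded and repress targets of their own. Because both strands come from 1 transcript, a change in transcription moves both, whereas a change after the cut can move them apart. Bases 2 to 8 of either strand form its seed, the stretch that pairs with targets, and the seeds of the 2 strands of a duplex differ.

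The assays carry an asterisk in their names when they were designed for a passenger. The normalized table holds 584 probes, of which 129 are passenger assays, 110 for mouse and 19 for rat sequences, and all 129 lie on plate B of the 2 plates. A passenger was taken as a member when its normalized log2 value reached 2 in at least 3 of 13 samples, which left 105 of 129. Of these 105 members, 77 had an assay for a guide of the same name without the asterisk and 28 did not. Pairs were matched by name, so a guide made from several loci stands against the passenger of 1 of them. The weakest member was miR-150*, with a stromal mean of 2.24, and just outside stood miR-325*, which was detected in 3 of 4 stromal samples.

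Cells were sorted from pooled glands of untreated adult FVB/N mice. CD29hi CD24+ cells gave the MaSC/basal population, a mixture in which stem cells are accompanied by myoepithelial cells and possibly by progenitors of the basal lineage. Among CD29lo CD24+ cells, CD61+ cells gave the luminal progenitors and CD61- cells the mature luminal cells, and CD29- CD24- cells gave stroma, a mixture of non-epithelial cells. Each epithelial population was used in 3 samples, from 3 mouse pools that all 3 populations share, and the 4 stromal samples all came from 1 other pool. The fourth MaSC/basal sample, from a pool of its own, stood apart from the other 3 and was left out except where stated.

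The raw value is the Ct, the PCR cycle at which an assay crossed its threshold. It falls as the amount of RNA rises, and undetected reactions were given 40. The normalized value rises with the amount, and 1 log2 unit is about 1 cycle or a doubling. Levels of different assays, and so of a passenger and its guide, were not compared with each other, since each assay has its own efficiency. Each epithelial sample had 59 to 62 detected passenger assays, and each stromal sample had 104 to 108. In the guides used as markers, the summed level of the 5 epithelial miRNAs (miR-200a, miR-200b, miR-200c, miR-141 and miR-429) was 26.79 to 28.35 in epithelium and 20.62 to 21.56 in stroma on the log2 scale. That of 4 mesenchymal miRNAs was 19.06 to 20.01 and 26.40 to 26.83. That of 5 blood cell miRNAs was 21.17 to 21.59 in epithelium and 19.80 to 20.99 in stroma. For both strands of miR-126, from endothelium, it was 23.24 to 23.49 in luminal progenitors against 24.10 to 24.78 in the other epithelial samples. In stroma that of miR-126 was 23.03 to 23.88. That of 3 myoepithelial miRNAs was 28.33 to 29.46 in MaSC/basal, 23.64 to 24.06 in luminal progenitor, 22.21 to 22.88 in mature luminal and 26.19 to 26.46 in stromal samples. All of these markers were detected in every sample of each population. The part of other cells in the results below was not tested. In bulk samples such as these, fewer cells of a type and less RNA per cell cannot be told apart.

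The sequences below are those of the strands on which the results turn, from RefSeq on GRCm38.p6, written 5′ to 3′ with the seed in capitals. The passengers of miR-27a and miR-27b differ at 8 of 22 bases and have different seeds, while their guides differ at 1 of 21 bases and share a seed. Mir27a is at chr8:84208685-84208747 (+) outside the span of any other annotated gene, and Mir27b is at chr13:63300718-63300780 (+) within Aopep.
miR-27a*: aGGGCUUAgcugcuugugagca
miR-27a: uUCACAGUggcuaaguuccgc
miR-27b*: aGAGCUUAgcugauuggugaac
miR-27b: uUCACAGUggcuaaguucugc

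The passengers of miR-34c and miR-135a are shown because the difference between their strands changed among the populations. Mir34c is on the minus strand, with its passenger at chr9:51103044-51103065, within the spans of Btg4 and Hoatz. The miR-135a guide is made from 2 loci, at chr9:106154140-106154162 (+) and chr10:92072141-92072163 (-), and the passenger sequence printed here belongs to the chromosome 9 locus, at chr9:106154179-106154200 (+) within Glyctk.
miR-34c*: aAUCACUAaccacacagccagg
miR-135a*: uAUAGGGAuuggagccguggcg
miR-135a: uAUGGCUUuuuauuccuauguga

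The let-7 passengers are shown because their family name comes from the guides. All 7 mouse guides looked up (let-7a, b, c, d, f, g and i) share the seed GAGGUAG, whereas the 7 passengers have 5 different seeds. Those of let-7a, let-7b and let-7f have the same seed. let-7a* is at chr13:48538188-48538209 (-) and has the same sequence as the passenger of let-7c-2 on chromosome 15, so its assay cannot tell the 2 loci apart.
let-7a: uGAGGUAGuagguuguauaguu
let-7a*: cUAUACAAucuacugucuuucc
let-7b*: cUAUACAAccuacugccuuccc
let-7f*: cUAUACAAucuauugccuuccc
let-7c-1*: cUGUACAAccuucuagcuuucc
let-7d*: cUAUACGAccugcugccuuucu
let-7g*: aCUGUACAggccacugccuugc
let-7i*: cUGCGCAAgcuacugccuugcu

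The miR-30 passengers fall into 2 seed groups, miR-30a* with miR-30e* and miR-30c-1* with miR-30c-2*, while the guides share 1 seed. The passengers of miR-148a, miR-322, miR-218-2 and miR-146b are added because they were among the most changed. miR-148a* is at chr6:51269867-51269888 (-), miR-322* at chrX:53054269-53054289 (-), miR-218-2* at chr11:35616882-35616903 (+) within Slit3, and miR-146b* at chr19:46342828-46342849 (+).
miR-30a: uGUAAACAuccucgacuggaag
miR-30a*: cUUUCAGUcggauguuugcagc
miR-30e*: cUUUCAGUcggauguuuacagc
miR-30c-1*: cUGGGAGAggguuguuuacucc
miR-30c-2*: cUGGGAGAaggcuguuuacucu
miR-148a*: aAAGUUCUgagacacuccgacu
miR-322*: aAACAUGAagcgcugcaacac
miR-218-2*: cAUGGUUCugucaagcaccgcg
miR-146b*: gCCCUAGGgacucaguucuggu

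Detection divided the passengers into 3 sets. In epithelium 56 of 129 were detected in all 9 samples, 10 in some and 63 in none. The 56 spanned normalized epithelial means of 4.46 for miR-191* to 23.71 for miR-30a*, with a median of 13.52, against 16.88 for the other probes detected in all 9. The median SD between replicates of these passengers was 0.42 in MaSC/basal, 0.40 in luminal progenitor and 0.41 in mature luminal samples. The 24 assays that did not reach the filter included 16 with a Ct of 40 in all 13 samples. All 5 passengers of the embryonic stem cell clusters (miR-293*, miR-294*, miR-302a*, miR-302b* and miR-302c*) and rno-miR-1*, of a muscle miRNA, were among these 16.

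Among the 3 epithelial populations, 30 of 105 passengers differed in limma's F-test (Benjamini-Hochberg adjusted p under 0.05), against 44.4% of all 459 probes tested. Of the passengers detected in all 9 samples 28 of 56 differed, 50%, against 59.9% of all 309 such probes. By function and origin the passengers that differed were mixed. They came from epithelial miRNAs (the miR-200 family), from the let-7 and miR-30 families, from clusters such as Dlk1-Dio3, and from single genes such as Mir34c and Mir148a.

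In luminal progenitors 14 passengers were higher and 9 lower than in MaSC/basal cells, against 15.9% of all probes higher and 20.7% lower. The higher ones included miR-148a*, miR-322*, miR-30c-2*, miR-9* and 3 of the 4 miR-200 family passengers, and the lower ones miR-34c*, miR-218-2*, rno-miR-99a* and rno-miR-136*. Mature luminal cells had 7 higher and 15 lower than MaSC/basal cells, against 13.9% of all probes higher and 22% lower, with miR-148a*, miR-322*, miR-27a* and miR-141* among the higher and miR-34c*, miR-218-2*, rno-miR-99a* and miR-31* among the lower. Between the luminal populations, 2 were higher in mature cells, miR-27a* and miR-27b*, and 16 were lower, against 10.9% and 11.1% of all probes. In either direction 23, 22 and 18 passengers were called, where 36.6%, 35.9% and 22% of all probes were.

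The split into higher and lower depended on how the samples were scaled, so single members are given below and the split is not read as a shift of passengers as a class. For luminal progenitors against MaSC/basal cells it was 14 and 9 as deposited, 5 and 10 on Ct values without normalization, 4 and 21 with U6 of the same plate as reference, and 14 and 8 with the median of the same plate as reference. For mature luminal against MaSC/basal cells these were 7 and 15, 6 and 9, 4 and 23, and 25 and 9. For mature luminal cells against luminal progenitors they were 2 and 16, 3 and 1, 2 and 2, and 11 and 3. The median log2 difference of all probes detected in all 9 samples itself moved, for example from -0.10 to 0.68 without normalization in the last comparison. Relative to that median, the median passenger stood at -0.45 as deposited, -0.43 without normalization, -0.36 with U6 and 0.51 with the plate median there. Called in the same direction under all 4 scalings were 12 passengers in the first comparison (4 higher, 8 lower), 12 in the second (4 and 8) and 2 in the last, miR-27b* and miR-146b*. In the first these were miR-148a*, miR-322*, miR-30a* and miR-30c-2*, which were higher, and let-7c-1*, miR-218-2*, miR-27b*, miR-34c*, miR-411*, miR-872*, rno-miR-136* and rno-miR-99a*, which were lower. In the second they were miR-141*, miR-148a*, miR-27a* and miR-322*, which were higher, and let-7c-1*, miR-193*, miR-218-2*, miR-31*, miR-34c*, miR-676*, rno-miR-136* and rno-miR-99a*, which were lower. Every other call was lost under at least 1 scaling.

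**Figure D1:**
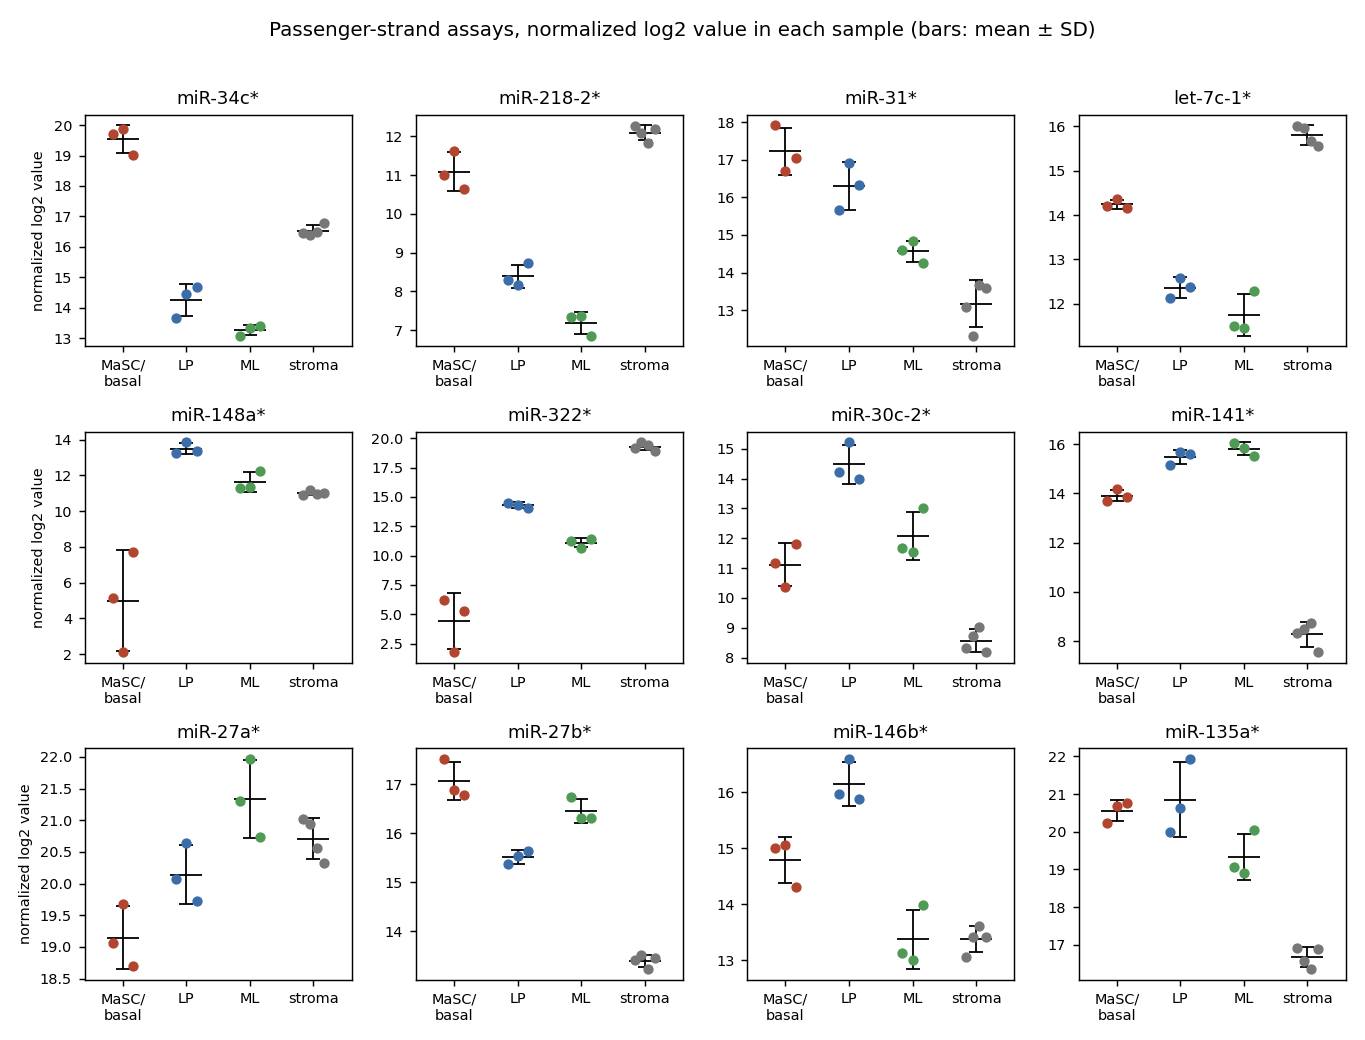
Normalized log2 value (y axis, a separate range in each panel) of 12 passenger assays in each sample, by population (LP, luminal progenitor, and ML, mature luminal), with points for samples and black bars for the mean ± SD. The 3 MaSC/basal samples are the highest of the epithelial samples for miR-34c*, miR-218-2* and let-7c-1* and the lowest for miR-148a*, miR-322* and miR-141*.

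The passengers that were highest in MaSC/basal cells were led by miR-34c*. It stood at 19.72, 19.87 and 19.01 in the MaSC/basal samples, at 13.67, 14.43 and 14.67 in luminal progenitors and at 13.08, 13.33 and 13.40 in mature luminal cells. The 3 populations did not overlap. The difference from MaSC/basal was -5.28 ± 0.29 (SE) in luminal progenitors, about 38.7-fold, and -6.27 ± 0.29 in mature cells (limma, adjusted p = 1.24e-07 and 3.64e-08). miR-34c belongs to a family whose transcription p53 activates.

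miR-218-2*, from an intron-hosted miRNA within Slit3, which encodes a secreted guidance protein, followed the same order. Its values were 11.01, 11.63 and 10.63 in MaSC/basal samples, 8.29, 8.16 and 8.73 in luminal progenitors and 7.33, 7.36 and 6.85 in mature luminal cells. The populations again did not overlap, with differences from MaSC/basal of -2.70 ± 0.27 and -3.91 ± 0.27 (limma, adjusted p = 1.46e-05 and 7.07e-07). With the fourth MaSC/basal sample, in which it was undetected (Ct of 40), both calls were lost (adjusted p = 0.991 and 0.614).

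let-7c-1* and miR-99a* come from precursors less than a kilobase apart on chromosome 16. let-7c-1* was at 14.21, 14.36 and 14.16 in MaSC/basal samples, 12.12, 12.59 and 12.38 in luminal progenitors and 11.50, 11.46 and 12.28 in mature luminal cells. The rat assay rno-miR-99a* was at 13.48, 14.32 and 15.21, then 11.89, 12.40 and 11.40, then 10.45, 9.79 and 11.42. For both, every MaSC/basal value lay above every luminal value. The differences of mature luminal from MaSC/basal cells were -2.50 ± 0.24 for let-7c-1* and -3.78 ± 0.50 for rno-miR-99a* (limma, adjusted p = 9.71e-06 and 0.000115).

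rno-miR-136*, from the imprinted Dlk1-Dio3 region, was at 12.24, 12.57 and 12.30 in MaSC/basal samples, 9.74, 10.30 and 11.14 in luminal progenitors and 9.18, 10.10 and 9.91 in mature luminal cells. The MaSC/basal values lay above all others, by 1.98 ± 0.35 and 2.64 ± 0.35 in the means (limma, adjusted p = 0.000807 and 0.00011). The first was lost with the fourth MaSC/basal sample (adjusted p = 0.145). miR-31* had a different shape. It was at 17.92, 16.71 and 17.04 in MaSC/basal samples and overlapped with luminal progenitors, at 15.65, 16.92 and 16.33, while mature luminal cells were lower at 14.59, 14.83 and 14.26. Its mature luminal values differed from MaSC/basal by -2.66 ± 0.44 (limma, adjusted p = 0.000563).

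Among the passengers higher in luminal cells, miR-148a* had the largest difference of those detected in every epithelial sample. It was at 5.16, 2.10 and 7.72 in MaSC/basal samples, 13.26, 13.86 and 13.37 in luminal progenitors and 11.29, 11.33 and 12.25 in mature luminal cells. The MaSC/basal values were near the limit of detection and spread over 5 log2 units, and all lay below the luminal values. The differences were 8.51 ± 1.04 and 6.63 ± 1.04 (limma, adjusted p = 6.44e-05 and 0.000391), and the second was lost with the fourth MaSC/basal sample (adjusted p = 0.0715), in which miR-148a* was at 12.32. The guide of miR-148a is abundant in milk and in the lactating gland.

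miR-322* comes from the X-linked cluster with miR-503, whose guides share all or most of their seed with miR-15 and miR-16. It was at 6.23, 1.74 and 5.29 in MaSC/basal samples, the middle value being a Ct of 40. It was at 14.52, 14.35 and 14.05 in luminal progenitors and at 11.27, 10.66 and 11.41 in mature luminal cells. No population overlapped with another. The differences from MaSC/basal were 9.88 ± 0.88 and 6.69 ± 0.88 (limma, adjusted p = 5.75e-06 and 0.000112). The first was called in all 21 alternatives run for it, and the second was lost with the fourth MaSC/basal sample, at 13.91 (adjusted p = 0.151). The lower value in mature luminal cells than in luminal progenitors (-3.19 ± 0.88, limma adjusted p = 0.0241) was lost with the mouse pool as a block (adjusted p = 0.0537). It was called in 11 of 21 alternatives and was also lost without luminal progenitor 1, 2 or 3 or mature luminal 1 or 2 (adjusted p = 0.055 to 0.078).

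miR-30c-2* was highest in luminal progenitors, at 14.23, 15.22 and 14.00, against 11.17, 10.36 and 11.82 in MaSC/basal and 11.66, 11.54 and 13.02 in mature luminal samples. Luminal progenitors did not overlap with either of the others. They differed from MaSC/basal by 3.36 ± 0.50, about 10.3-fold, and mature luminal cells differed from them by -2.41 ± 0.50 (limma, adjusted p = 0.000249 and 0.00619). The second call was lost under each other scaling (-1.34 to -1.74, adjusted p = 0.0616 to 0.313). miR-9*, whose guide is best known from the nervous system, was also highest in luminal progenitors, at 14.60, 14.90 and 14.65, against 13.07, 13.10 and 12.97 in MaSC/basal and 13.71, 13.53 and 14.30 in mature luminal samples. Its difference between luminal progenitors and MaSC/basal cells was 1.67 ± 0.22 (limma, adjusted p = 0.000116), but it was 1.25 without normalization and 0.53 with U6 as reference, where the call was lost (adjusted p = 0.15 and 0.245). let-7b* was named for the same comparison (2.32 ± 0.83, limma adjusted p = 0.0489), but it kept its call in 5 of 22 alternatives. It lost it without MaSC/basal 2 or 3, any luminal progenitor, mature luminal 1 or any stromal sample (adjusted p = 0.0558 to 0.163).

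miR-141* and miR-10a* were higher in both luminal populations. miR-141*, from the miR-200 family whose guides repress the Zeb factors, was at 13.71, 14.16 and 13.85 in MaSC/basal samples, 15.16, 15.66 and 15.61 in luminal progenitors and 16.06, 15.85 and 15.52 in mature luminal cells. miR-10a*, from the Hoxb cluster, was at 12.78, 11.33 and 11.80, then 13.07, 13.96 and 13.57, then 13.75, 14.01 and 13.21. For both, the luminal populations overlapped with each other and not with MaSC/basal. Mature luminal cells differed from MaSC/basal by 1.90 ± 0.30 for miR-141* and 1.68 ± 0.39 for miR-10a* (limma, adjusted p = 0.000383 and 0.00564). The call of miR-10a* was lost with U6 as reference (0.91, adjusted p = 0.0804) and with the fourth MaSC/basal sample (0.0612). For luminal progenitors, where the differences were 1.57 and 1.56, both were lost with U6 as reference (0.39 and 0.17, adjusted p = 0.501 and 0.719), without normalization (0.208 and 0.361) and with the fourth MaSC/basal sample (0.0932 and 0.0829).

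Mature luminal cells and luminal progenitors were separated in opposite directions by miR-27b* and miR-146b*. miR-27b* was at 15.37, 15.54 and 15.65 in luminal progenitors, 16.74, 16.32 and 16.31 in mature cells and 17.52, 16.90 and 16.79 in MaSC/basal samples. No 2 populations overlapped, and mature luminal cells stood 0.93 ± 0.21 above luminal progenitors (limma, adjusted p = 0.00886). miR-146b*, whose guide represses Traf6 and Irak1 in signalling to NF-kB, was at 15.96, 16.60 and 15.88 in luminal progenitors, 13.12, 13.01 and 13.98 in mature cells and 15.01, 15.05 and 14.31 in MaSC/basal samples. Here luminal progenitors were highest, and mature luminal cells stood at -2.77 ± 0.32 against them (limma, adjusted p = 0.00035). Both calls held in all 22 alternatives. miR-27a* was also higher in mature luminal cells than in luminal progenitors (1.19 ± 0.37, limma adjusted p = 0.0418), but this call held in 10 of 22. It was lost without MaSC/basal 1, luminal progenitor 1 or 3, mature luminal 1 or 2 or stroma 1, 2 or 3 (adjusted p = 0.0516 to 0.155).

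let-7g* fell in mature luminal cells. It was at 12.71, 13.18 and 13.13 there, against 14.01, 15.12 and 15.74 in luminal progenitors and 14.24, 15.89 and 14.43 in MaSC/basal samples, without overlap. The difference from luminal progenitors was -1.95 ± 0.48 (limma, adjusted p = 0.0146), and it was lost without luminal progenitor 2 or 3 or mature luminal 1 (adjusted p = 0.0506, 0.0577 and 0.0607) and under each other scaling (0.103 to 0.248). miR-676* and miR-181a-1*, the latter from a family expressed in lymphoid cells, were also lower in mature luminal cells than in luminal progenitors, by -1.42 ± 0.17 and -1.84 ± 0.30 (limma, adjusted p = 0.000389 and 0.00174). Both calls were lost without normalization (adjusted p = 0.401 and 0.237) and with U6 as reference (0.0791 and 0.0908), and that of miR-676* also with the fourth MaSC/basal sample (0.0958).

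Counts of calls moved by more than 1.5-fold without some samples. Without MaSC/basal 3, 37 rather than 22 passengers were called between mature luminal and MaSC/basal cells. Without mature luminal 1, 10 rather than 18 were called between the luminal populations. With the fourth MaSC/basal sample added, the counts were 13, 10 and 11 rather than 23, 22 and 18, and all of these were among the calls made without it.

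Guides were then set beside their passengers. In the 43 pairs with both strands detected in all 9 epithelial samples, 42 of the guides were measured on plate A and their passengers on plate B. Calls were compared over the wider set of 75 pairs of the same name in which both strands passed the filter. In these pairs 18 passengers were called between luminal progenitors and MaSC/basal cells. Their guide was called in the same direction for 10 and in the opposite direction for 0. Of 16 called between mature luminal and MaSC/basal cells the guide moved with 11 and against 0, and of 15 called between the luminal populations it moved with 5 and against 1, miR-135a*. Of all 75 guides, 29, 32 and 21 were called in the 3 comparisons. Among them 19, 21 and 15 guides were called while their passenger was not. Some of these 75 pairs have a passenger undetected in all 9 epithelial samples. Over the 43 pairs the log2 differences of the strands had a Pearson r of 0.63, 0.77 and 0.33 and a Spearman rho of 0.77, 0.78 and 0.58 in the 3 comparisons. These are descriptions, since the pairs share samples and normalization, and some guides or passengers are close relatives.

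**Figure D2:**
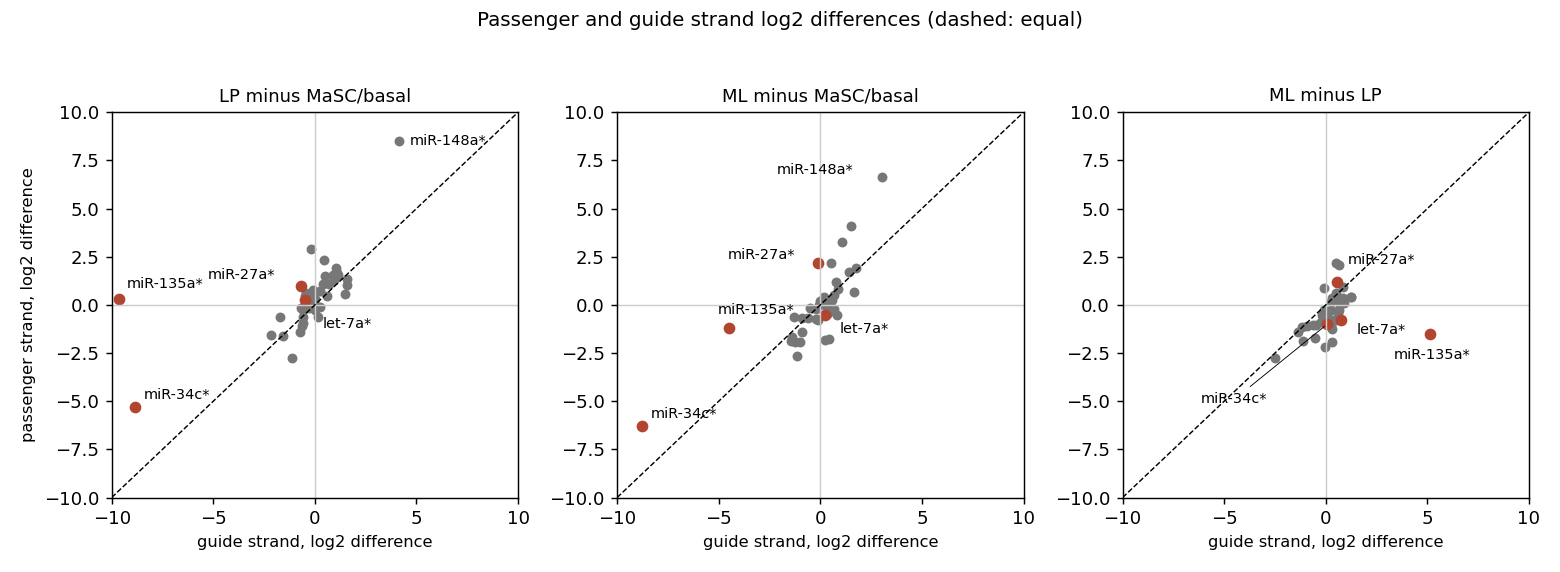
Log2 difference of the passenger (y axis) against that of its guide (x axis) for 43 pairs in 3 comparisons of luminal progenitor (LP), mature luminal (ML) and MaSC/basal cells. The dashed line marks equal differences, and red points are the 4 pairs whose strand difference was called, of which miR-135a* lies farthest from the line in the first and last panel.

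Whether the strands changed by unequal amounts was tested on the passenger minus guide value of each sample. A constant offset between the assays cancels in the comparison of populations, whereas an offset between the plates that differs from sample to sample does not. The 43 were tested together with 19 pairs of assays named 5p and 3p, and p-values were adjusted over all 62. Both assays of all 19 pairs were on plate A, so they carry no offset between plates. The strand difference changed in 4 of 62 pairs, 6.45%, namely those of miR-27a*, miR-34c*, miR-135a* and let-7a* (limma F-test). With the median passenger minus guide value of each sample subtracted, 3 were called. At an unadjusted p under 0.05 there were 11 of 62, 17.7%, of which 10 were among the 43. Of the 43 pairs, 34, 32 and 29 changed by less than 1 log2 unit in the 3 comparisons.

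For miR-27a the passenger minus guide value was -2.23, -2.37 and -2.20 in MaSC/basal samples, -0.98, -0.29 and -0.52 in luminal progenitors and -0.22, -0.11 and 0.40 in mature luminal cells. The populations did not overlap. It rose by 1.67 ± 0.29 in luminal progenitors (95% CI 0.99 to 2.35) and by 2.29 ± 0.29 in mature luminal cells (95% CI 1.61 to 2.97) relative to MaSC/basal (limma F-test, adjusted p = 0.00885). The passenger alone was at 19.06, 19.68 and 18.70 in MaSC/basal, 20.06, 20.64 and 19.72 in luminal progenitor and 21.30, 21.97 and 20.73 in mature luminal samples. The guide was at 21.29, 22.06 and 20.89, then 21.05, 20.93 and 20.24, then 21.52, 22.07 and 20.33. The passenger thus rose by 2.19 ± 0.37 between MaSC/basal and mature luminal cells (limma, adjusted p = 0.00066), while the guide differed by -0.10 ± 0.43 (adjusted p = 0.877). The guides of miR-27a and miR-27b differ at 1 of 21 bases, so their assays may share signal. The part of miR-27b in the miR-27a guide and strand values was not tested. miR-27a* kept the strand call in 14 of 16 alternatives, losing it without MaSC/basal 1 (adjusted p = 0.0516) and with the fourth MaSC/basal sample (0.269).

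miR-27b, with nearly the same guide sequence, gave values of -3.87, -5.24 and -4.77, then -4.33, -4.03 and -3.73, then -3.84, -4.52 and -3.47. These overlapped among all populations. The change from MaSC/basal to mature luminal cells was 0.69 ± 0.43 with a 95% CI of -0.32 to 1.69 (limma F-test, adjusted p = 0.502). Both its strands fell in luminal progenitors, miR-27b* by -1.55 ± 0.21 and miR-27b by -2.15 ± 0.27 against MaSC/basal (limma, adjusted p = 0.000125 and 7.72e-05).

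For miR-34c both strands were far lower in luminal cells, and the guide more so. The guide was at 17.09, 17.30 and 16.70 in MaSC/basal samples, 8.97, 8.08 and 7.42 in luminal progenitors and 8.38, 7.66 and 8.67 in mature luminal cells, a difference of -8.88 ± 0.37 for luminal progenitors against -5.28 ± 0.29 for miR-34c*. The strand value was 2.63, 2.57 and 2.31 in MaSC/basal samples, 4.70, 6.35 and 7.25 in luminal progenitors and 4.69, 5.67 and 4.73 in mature luminal cells. MaSC/basal was lowest, and the luminal populations overlapped. The change in luminal progenitors was 3.60 ± 0.62 (95% CI 2.18 to 5.02, limma F-test adjusted p = 0.0331). It was called in 10 of 16 alternatives and was lost without MaSC/basal 1 or 3, luminal progenitor 2 or mature luminal 2 or 3 (adjusted p = 0.053 to 0.0859). With the fourth MaSC/basal sample the change was 2.74 and the call was lost as well (limma F-test, adjusted p = 0.359).

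For miR-135a the guide carried the change. The guide was at 13.88, 13.31 and 13.52 in MaSC/basal samples, 8.09, 1.30 and 2.43 in luminal progenitors and 9.30, 8.81 and 9.04 in mature luminal cells. miR-135a* was at 20.23, 20.68 and 20.76, then 19.98, 20.62 and 21.93, then 19.06, 18.92 and 20.04. The guide was thus lowest in luminal progenitors, in 2 of which its Ct was 39.64 and 38.63, next to the limit of 40, and the passenger was lowest in mature luminal cells. The strand value was 6.36, 7.37 and 7.24 in MaSC/basal samples, 11.89, 19.32 and 19.50 in luminal progenitors and 9.75, 10.11 and 11.01 in mature luminal cells, and differed among them (limma F-test adjusted p = 0.0356). No size is given for luminal progenitors because the guide was hardly measured in 2 of the 3. The difference was called in 8 of 16 alternatives. The call was lost without MaSC/basal 1 or 3, luminal progenitor 2 or 3 or any mature luminal sample (adjusted p = 0.0534 to 0.099), and the p was 5.13e-06 without luminal progenitor 1. It was also lost with the fourth MaSC/basal sample (limma F-test, adjusted p = 0.0765). Between the luminal populations the strands were called in opposite directions, the passenger lower by -1.51 ± 0.46 and the guide higher in mature luminal cells (limma, adjusted p = 0.0365 and 0.0277). That passenger call was lost without luminal progenitor 2 or 3, mature luminal 1 or 2 or stroma 1 or 2 (adjusted p = 0.0504 to 0.132) and under each other scaling (0.233 to 0.481).

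For let-7a the strand value was -9.19, -9.38 and -8.91 in MaSC/basal samples, -8.69, -8.0 and -8.45 in luminal progenitors and -9.94, -10.11 and -9.66 in mature luminal cells. The populations did not overlap, and the change between the luminal populations was -1.52 ± 0.29 (95% CI -2.20 to -0.85, limma F-test adjusted p = 0.0405). Neither strand was called by itself in that comparison, with let-7a* at -0.79 ± 0.30 and let-7a at 0.74 ± 0.26 (limma, adjusted p = 0.0898 and 0.0665). The call held in 4 of 16 alternatives. It was lost with the mouse pool as a block (adjusted p = 0.0613) and without MaSC/basal 1 or 3, luminal progenitor 2 or 3 or any mature luminal sample (0.0534 to 0.148). The call was also lost without normalization (0.067), with U6 of the same plate as reference (0.102) and with the fourth MaSC/basal sample (0.0765). With the median strand value of each sample subtracted it was lost as well (0.185).

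**Figure D3:**
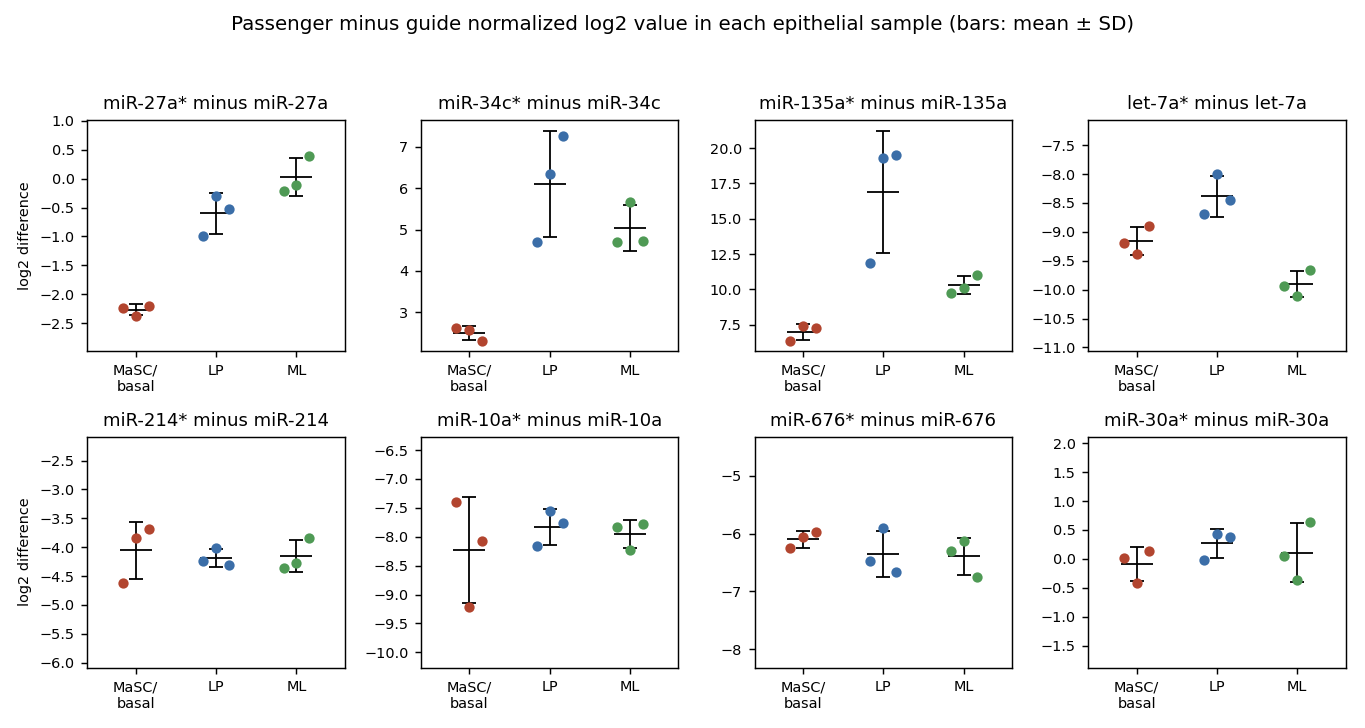
Passenger minus guide normalized log2 value (y axis, a separate range of at least 4 units in each panel) in each MaSC/basal, luminal progenitor (LP) and mature luminal (ML) sample, with black bars for the mean ± SD. The upper row shows the 4 called pairs, in which MaSC/basal samples do not overlap with the luminal ones, and the lower row 4 pairs with a small F statistic, in which they do.

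The pairs called on both strands whose strand value changed least were miR-214, miR-10a, miR-676 and miR-30a. For miR-676, an X-linked miRNA within Eda, the guide differed by -1.38 ± 0.22 and the passenger by -1.67 ± 0.17 between mature luminal and MaSC/basal cells (limma, adjusted p = 0.000408 and 1.69e-05), the passenger call being lost with the fourth MaSC/basal sample (0.0956). Its strand value of -6.26, -6.05 and -5.98 in MaSC/basal, -6.48, -5.90 and -6.66 in luminal progenitor and -6.31, -6.13 and -6.75 in mature luminal samples overlapped throughout, and the interval of the change was -1.0 to 0.41. For miR-214, from the transcript opposite Dnm3 that also makes miR-199a, both strands were lower in mature luminal cells than in luminal progenitors, by -1.14 ± 0.28 and -1.17 ± 0.28 (limma, adjusted p = 0.0137 and 0.0121), with an interval of -0.71 to 0.77 for the strand value. The passenger call was lost without luminal progenitor 3 or mature luminal 1 or 2 (adjusted p = 0.0551 to 0.0619) and under each other scaling (0.401 to 0.812). For miR-30a the interval between luminal progenitors and MaSC/basal cells was -0.42 to 1.13, and for miR-10a it was -0.65 to 1.47. Changes within these intervals, up to 1.47 log2 units for miR-10a, could therefore not be told from none in these pairs.

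miR-148a and let-7g lay near the called pairs. For miR-148a the guide rose by 4.13 ± 0.20 and the passenger by 8.51 ± 1.04 in luminal progenitors, but the strand value in MaSC/basal samples ranged from -16.09 to -10.24, and its change of 4.38 had a 95% CI of 1.5 to 7.26 (limma F-test, adjusted p = 0.134). For let-7g the guide differed by 0.32 ± 0.17 between the luminal populations and the passenger by -1.95 ± 0.48. The strand value changed by -2.28 ± 0.52 (95% CI -3.48 to -1.08, limma F-test adjusted p = 0.052).

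The count of 4 rested on single samples. It was 0 without MaSC/basal 1, 1 without luminal progenitor 2, mature luminal 2 or mature luminal 3, 2 without MaSC/basal 3, mature luminal 1 or luminal progenitor 3, and 5 or 6 without luminal progenitor 1 or MaSC/basal 2. It was 0 with the fourth MaSC/basal sample added. Where pairs with undetected values were kept, 22 passenger and guide pairs of 102 strand pairs were called, including these 4. In 13 of the 18 added pairs the passenger was undetected in all 9 epithelial samples, so that no measured amount of it enters the difference.

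Grouped by guide family, the passengers of the let-7 family, whose guides are known to rise with differentiation and are controlled by Lin28, were all detected in all 9 epithelial samples. Of 8 assays, 1 was higher and 1 lower in luminal progenitors than in MaSC/basal cells. The counts were 0 and 4 in mature luminal against MaSC/basal cells, and 0 and 1 between the luminal populations. Of all probes detected in all 9, 22.3% were higher and 26.2% lower in the first comparison. These shares were 18.1% and 30.7% in the second and 12.6% and 16.2% in the last. The medians of the let-7 passengers were 0.10, -0.92 and -0.70, against -0.10, -0.17 and -0.10 over all probes detected in all 9. The 4 lower ones in mature luminal cells were let-7c-1*, let-7g*, let-7i* (-1.87 ± 0.55) and rno-let-7e* (-1.32 ± 0.45; limma, adjusted p = 0.0198 and 0.0398). The call of let-7i* was lost without MaSC/basal 1 or 2 or mature luminal 1 or 3 (adjusted p = 0.05 to 0.0713) and with the plate median as reference (0.129), and that of rno-let-7e* with the plate median (0.415), without normalization (0.106) and without MaSC/basal 1 or 2, mature luminal 2 or 3 or stroma 2 or 4 (0.0514 to 0.139). The let-7 guides differ from let-7a by as little as 1 base, so their assays may share signal.

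Of the 6 miR-30 passengers, 4 were detected in all 9 samples. 3 were higher in luminal progenitors than in MaSC/basal cells and the same 3 were lower in mature luminal cells than in luminal progenitors, with medians of 1.18, 0.12 and -1.07 in the 3 comparisons, where 15.9% of all probes were higher in the first and 11.1% lower in the last. The 3 calls between the luminal populations were lost under each other scaling, with values of -0.44 to -0.83 for miR-30a* and -0.40 to -0.80 for miR-30e*. miR-30a* was at 23.00, 23.44 and 23.21 in MaSC/basal, 24.27, 24.66 and 24.56 in luminal progenitor and 23.12, 23.49 and 23.63 in mature luminal samples. miR-30e*, which differs from it at 1 of 22 bases, was at 23.04, 23.49 and 23.23, then 24.00, 24.53 and 24.43, then 22.93, 23.41 and 23.48. Both stood higher in every luminal progenitor sample than in any other epithelial sample, by 1.28 ± 0.18 and 1.07 ± 0.20 against MaSC/basal (limma, adjusted p = 0.000176 and 0.00115), the latter lost with U6 as reference (0.62, adjusted p = 0.147). The assays of miR-30a* and miR-30e* may share signal, so their calls may not be separate results. The third called passenger was miR-30c-2*, of the other seed group. rno-miR-30d* was not called (0.33 ± 0.58, limma adjusted p = 0.792). miR-30b* had a Ct of 40 in all 9 epithelial samples, and miR-30c-1* was detected in 8 of 9, with values from 0.65 to 6.61.

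**Figure D4:**
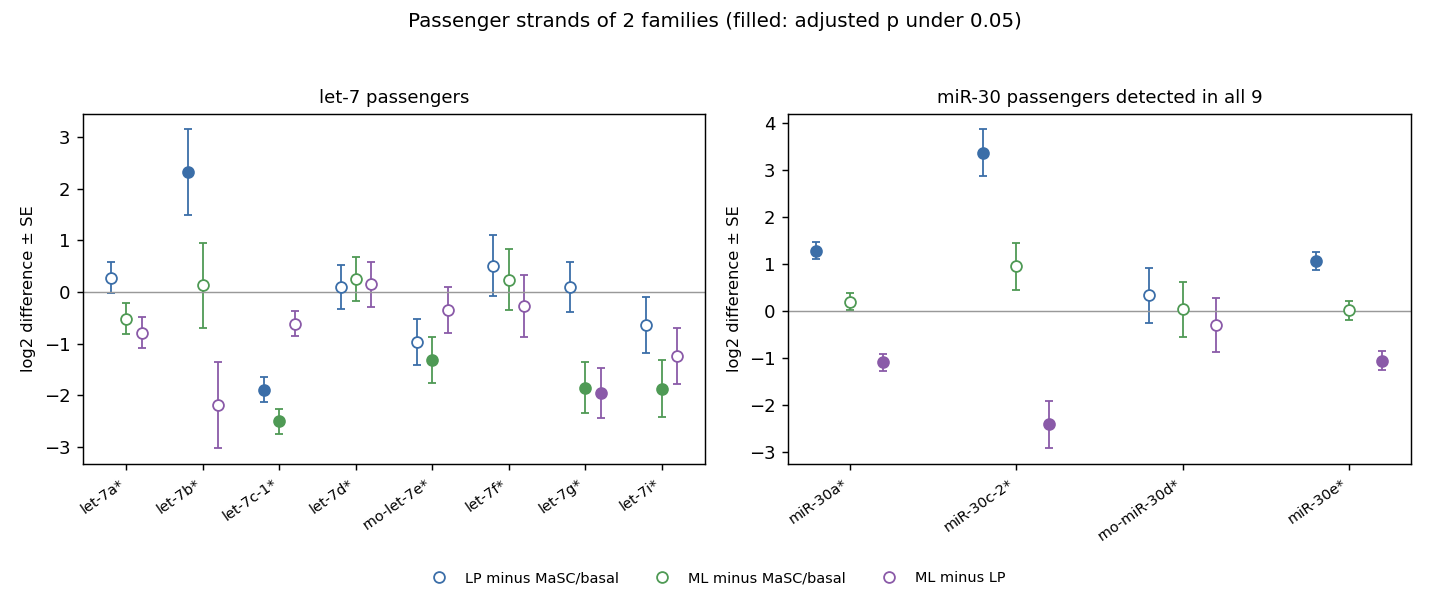
Log2 difference ± SE (y axis) of the let-7 passengers and of the miR-30 passengers detected in all 9 epithelial samples, for luminal progenitor (LP) against MaSC/basal, mature luminal (ML) against MaSC/basal and ML against LP, with filled points for an adjusted p under 0.05. miR-30a*, miR-30c-2* and miR-30e* lie above 0 in the first comparison and below 0 in the last, while let-7 passengers differ from one another in sign.

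All 4 miR-200 family passengers were detected in all 9 samples. miR-141*, miR-200a* and miR-200b* were higher in luminal progenitors than in MaSC/basal cells, as were 22.3% of all probes detected in all 9. The last 2 passengers differed by 0.72 ± 0.21 and 1.08 ± 0.31 (limma, adjusted p = 0.0224 and 0.0185). Both were lost without MaSC/basal 3 or luminal progenitor 2 or 3 (adjusted p = 0.0502 to 0.0824), and both without normalization (0.555 and 0.18) and with U6 of the same plate as reference (0.622 and 0.437), where miR-200a* had the opposite sign (-0.20). miR-200c* was at 5.00, 2.67 and 9.22 in MaSC/basal samples and 10.08, 9.50 and 9.62 in mature luminal cells, and did not pass (limma, adjusted p = 0.0577). Against MaSC/basal the median of the 4 was 1.33 for luminal progenitors and 1.2 for mature cells. Of 11 passengers of miR-17-92 and its paralogs, which drive proliferation, 6 passed the filter, 5 were detected in all 9 samples and 0 were called in any of the 3 comparisons. Of the other guide families, miR-29 had 1 of 5 passengers called in these comparisons, miR-29c*, lower in mature luminal cells than in luminal progenitors (-1.05). The family of miR-99, miR-100 and miR-125 had rno-miR-99a* of 4. The families of miR-15 with miR-16 and of miR-143 with miR-145 had 0 of 3 and 0 of 1. Undetected in all 9 epithelial samples were 2 of the 5, 2 of the 4 and 1 of the 3. Of all probes tested, 36.6%, 35.9% and 22% were called in the 3 comparisons. miR-183*, from a cluster of sensory epithelia, was also not called in these comparisons, at 19.30 to 19.48 in MaSC/basal, 18.99 to 19.39 in luminal progenitor and 19.01 to 19.63 in mature luminal samples.

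Of 16 Dlk1-Dio3 passengers, 14 passed the filter, 13 were detected in none of the 9 epithelial samples and 2 in all 9. These 2 were rno-miR-136* and miR-411*. Both were lower in luminal progenitors than in MaSC/basal cells, as were 26.2% of all probes detected in all 9. miR-411* was at 9.86, 11.46 and 11.30 against 6.36, 10.84 and 7.06 in these groups, which overlap (-2.78 ± 0.94, limma adjusted p = 0.0389). Its call was lost with the mouse pool as a block (adjusted p = 0.0764). It was kept in 8 of 22 alternatives and was also lost without MaSC/basal 2 or 3, luminal progenitor 1 or 3, mature luminal 1 or 2 or any stromal sample (adjusted p = 0.05 to 0.141).

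For 8 miRNAs the plate carries a mouse and a rat passenger assay, and these often disagreed. miR-135a* was detected by the mouse assay in all 9 epithelial samples and by the rat assay in 1, and miR-20a* in 9 and 0. miR-136* was the reverse, with 0 by the mouse assay and 9 by the rat assay. miR-7a* was detected in 9 by the mouse assay, with an epithelial mean of 20.41, and in 6 by the rat assay, with a mean of 3.60. In stroma miR-382* was detected in 0 of 4 samples by the mouse assay and in 4 by the rat assay, at a mean Ct of 29.82. Detection of a passenger here is therefore detection by a given assay. The assays were matched by name and the rat sequences were not looked up. Whether both assays of a name target the same strand was therefore not checked.

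Stroma was set against epithelium with a caveat from the controls. On plate B, the small nucleolar RNAs U87, snoRNA135 and snoRNA429 had a Ct of 40 in all 9 epithelial samples and mean Cts of 20.8, 16.3 and 16.6 in stroma, and snoRNA202 was at 33.7 against 13.7. On plate A, U87, snoRNA135 and snoRNA202 were detected in all 9 epithelial samples, at mean Cts of 22.3, 18.8 and 16.3. U6 and Y1 on plate B were close between the groups, at 11.7 and 12.4 for U6 and 25.8 and 24.4 for Y1. Some plate B reactions thus gave no product in epithelial samples although the same RNA was measured in them on plate A. A passenger with a Ct of 40 in epithelium may be one of these or may be low there, and the 2 cannot be told apart. The caveat also covers detected passengers. On plate B snoRNA202 was detected in all 9 epithelial samples, but at 33.7 against 16.3 on plate A. Whether detected passengers also read low in epithelium because of the plate was not tested. Stroma also came from 1 mouse pool, so its replicates do not carry the spread between pools.

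**Figure D5:**
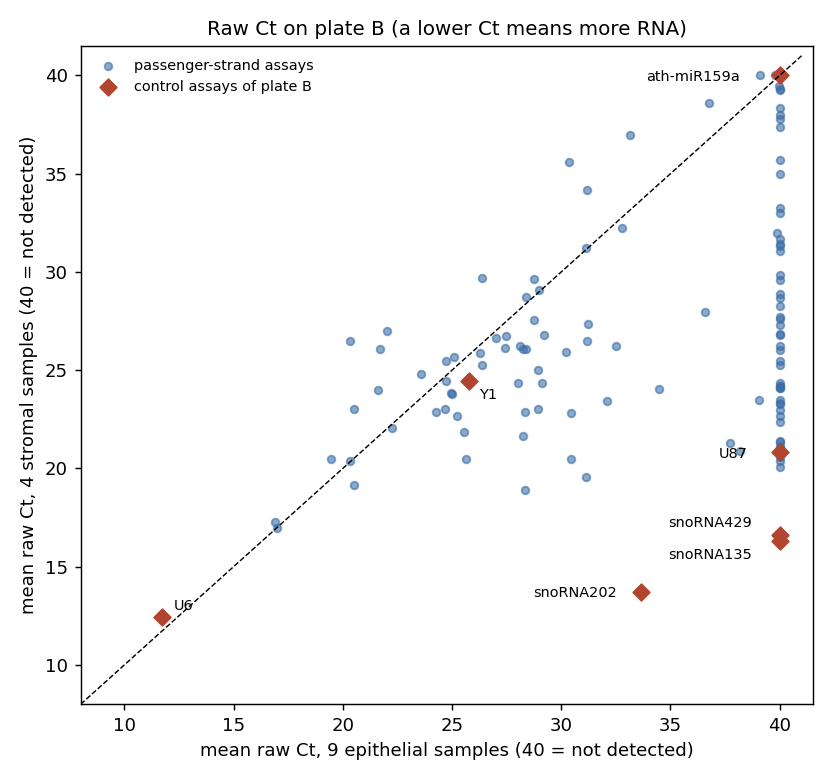
Mean raw Ct in 4 stromal samples (y axis) against that in 9 epithelial samples (x axis) for 129 passenger assays and the plate B controls, where a Ct of 40 means no detection and the dashed line marks equal Cts. Many passengers line up at 40 in epithelium, as do U87, snoRNA135 and snoRNA429, while U6 and Y1 lie near the line.

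With that caveat, 62 of 105 passengers were higher and 32 lower in stroma than in epithelium, where 47.9% of all probes were higher, 33.8% lower and 81.7% either. Nothing is read from the 62, because 42 of them passed the filter through stroma alone and so had to be higher there. These 42 had a Ct of 40 in all 9 epithelial samples and were detected in all 4 stromal samples, at mean Cts of 20.10 to 37.98 with a median of 25.76. The same pattern was seen in 23 of the 80 other plate B probes and in 9 of 375 plate A probes. Of the 27 guides measured for these 42 passengers, 22 were detected in all 9 epithelial samples. miR-376b* (mean Ct 20.10 in stroma), miR-485* (20.38), miR-455* (20.76) and miR-199b* (21.35) were among the strongest in stroma, and no fold change is given for them.

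Of the 56 passengers detected in all 9 epithelial samples, 14 were higher and 32 lower in stroma, with a median log2 difference of -0.92. It was -0.34 for plate A probes and 1.15 for other plate B probes detected in all 9. With U6 of the same plate as reference, the 62 higher and 32 lower of all passengers became 84 and 8. The largest differences kept their direction and call in all 20 alternatives run for them. These alternatives change the scaling, the filter, the floor or the samples. They cannot test for weak plate B reactions in epithelium or for the spread between stromal pools. miR-214* was at 20.44, 20.49, 20.20 and 20.20 in stroma and between 11.66 and 13.52 in epithelium (7.77 ± 0.20, limma adjusted p = 1.02e-11), and its guide differed by 8.03 ± 0.20. miR-200b* was at 12.34, 12.27, 13.09 and 13.47 in stroma and at 19.82 to 21.43 in epithelium (-7.81 ± 0.23, limma adjusted p = 2.88e-11), and its guide differed by -6.25 ± 0.26. miR-200a* and miR-141* were likewise lower in stroma, by -7.00 ± 0.16 and -6.78 ± 0.22 (limma, adjusted p = 2.3e-12 and 7.31e-11), beside guides at -5.72 ± 0.23 and -6.99 ± 0.29.

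miR-872* and miR-191* were higher in stroma while their guides were not. miR-872* was at 18.05, 18.31, 18.23 and 18.44 in stroma and between 9.69 and 11.42 in epithelium (7.57 ± 0.17, limma adjusted p = 2.86e-12), and its guide differed by -0.62 ± 0.27 (adjusted p = 0.0526). miR-191* was at 11.12, 11.41, 11.07 and 11.14 in stroma and between 1.5 and 6.89 in epithelium (6.73 ± 0.91, limma adjusted p = 3.51e-05), and its guide differed by -0.59 ± 0.11 (adjusted p = 0.000589). The passengers were read on plate B and the guides on plate A, and the part of the plate in these differences was not tested. Of the 43 pairs, 34 had the same sign on both strands in stroma against epithelium.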

How the data were processed

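miRNAs were measured by the authors with TaqMan rodent arrays on 2 plates in 14 sorted mouse samples, after stem-loop reverse transcription of 3 µl RNA and 12 cycles of pre-amplification. The deposited Ct values were set by the authors, with 40 for undetected reactions. The deposited log2 expression values were made by the authors by subtracting each Ct from a constant just above 40, followed by cyclic loess between samples (span 0.7, 5 iterations) with U6 weighted 100, using limma, whose version is not given in the sources used here. A deposited table of the authors' own comparison of MaSC/basal with luminal cells holds log fold changes, mean expression, t, p, FDR and log-odds for 355 probes, 0 of them passengers, and was not used. Depth cannot be given as counts, and the number of detected assays and of samples limits the precision.

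Probes reaching 2 in at least 3 of 13 samples (459 of 584) were fitted with 4 population means by limma 3.58.1 in R 4.3.3 (9 residual and 1.44 prior degrees of freedom), with Benjamini-Hochberg adjustment over all 459 probes and a threshold of 0.05. Passenger minus guide values of 62 strand pairs detected in all 9 epithelial samples were fitted in the same way (6 residual and 2.06 prior). The fits were tested on simulated data. The design took the filter from the study's methods. Leaving out the fourth MaSC/basal sample was a choice made here and is not stated in those methods. Same-numbered epithelial samples share a mouse pool by their labels. Their residuals around the population means had a median correlation of 0.36, with 8 of 9 above 0.1, against -0.15 for different pools. Residuals cancel out within each population, so the second value partly follows from the first. Same-numbered samples thus varied together, and whether through the mouse pool or through shared handling was not tested. The pool was fitted as a block in an alternative.

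Named passengers follow a rule: in each epithelial comparison and direction the 4 largest called differences detected in every sample of both sides without overlap, called strand pairs, pairs called in opposite directions, the 4 pairs called on both strands with the smallest strand F, the 3 largest in each direction in stroma, and members of guide-family lists. Members and lists were chosen with earlier results of these data known. The strand values of miR-27b, miR-148a and let-7g, and the example stromal passengers with a Ct of 40 in epithelium, were chosen after their values were seen. Alternatives were the scaling, the filter, a floor of 5.5, all samples, leaving out each sample and the mouse pool block. Fits on probes detected in all 9 epithelial samples and guides under a looser name were added after seeing the data. Sequences were matched by name in RefSeq tables for 37 of 41 assays looked up.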

Additional observations from a re-analysis of the deposited data

Results flagged for a closer look

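The stromal samples were screened for a single value far from the other 3, in 67 named or listed passengers detected in all 4. miR-29c* was at 11.89 in stroma 1 and at 12.02 in each of the others. rno-miR-136* was at 15.94 in stroma 2 and between 15.41 and 15.50 in the others. A screen of this kind picks about 1 in 20 groups by chance.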

How the results depend on the processing

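The passengers differing among the epithelial populations were 30, and 18 without normalization. Against MaSC/basal, luminal progenitors gave 23 calls, 13 with all 14 samples and 15 without normalization. Mature luminal cells gave 22, 10 with all 14 samples and 34 with the plate median as reference. Between the luminal populations there were 18, 11 with all 14 samples and 4 both without normalization and with U6 as reference. Strand pairs called were 4, 0 with the fourth MaSC/basal sample and 22 with undetected values kept. Leaving out 1 sample gave 24 to 34, 18 to 25, 19 to 37, 10 to 25, and for strand pairs 0 to 6. With the mouse pool as replicate block the counts were 34, 25, 25, 16 and 3, and among the named results it ended 6 of 57 passenger calls (miR-411* in luminal progenitors and miR-27b* and miR-872* in mature luminal cells against MaSC/basal, and miR-322*, miR-34c* and miR-9* between the luminal populations) and the let-7a strand call. Stroma gave 94 calls and 86 to 110 in the alternatives. Of single results, reversed signs were all below the threshold: miR-200a* (-0.20, U6 reference, luminal progenitor against MaSC/basal), miR-27b* and miR-872* (0.39 and 0.047, plate median, mature luminal against MaSC/basal), miR-9* (0.066, plate median, between the luminal populations), and the strand changes of miR-214 (-0.42 to 0.041 on leaving out 1 sample, 0.041 without MaSC/basal 3), miR-10a (-0.27 without normalization, -0.14 with U6, -0.087 to 0.82 on leaving out 1 sample, -0.087 without MaSC/basal 2) and miR-676 (0.18 with sample medians subtracted). In all, 223 of the values of named results fell below the threshold and 1267 stayed on their side. Probes kept by the filter with a Ct of 40 in a population carry no measured amount there.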

Other observations

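The fourth MaSC/basal sample, from a mouse pool of its own and left out of the fits above, had 59 detected passenger assays, as many as the lowest of the other epithelial samples. miR-34c* was at 14.28 there, against 19.01 to 19.87 in the other MaSC/basal samples and 13.08 to 14.67 in the luminal samples. miR-148a* was at 12.32, against 2.10 to 7.72 and 11.29 to 13.86. miR-322* was at 13.91, against 1.74 to 6.23 and 10.66 to 14.52. miR-141* was at 15.66, against 13.71 to 14.16 and 15.16 to 16.06. In these 4 passengers it lay within the luminal range. miR-218-2* was undetected there, with a Ct of 40, and was detected in the other 13 samples. miR-31* at 17.39 and miR-27b* at 17.03 lay within the range of the other MaSC/basal samples. In let-7a*, miR-30a* and miR-200b* it stood at 13.12, 23.22 and 20.58.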
